A study of Mus musculus with 6 samples.

Results

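Interferon response and MHC class I genes were examined in whole brains of mice given plastic particles through the nose. The set was given as 37 gene symbols covering interferon receptors, the STAT and IRF factors downstream of them, antiviral effectors, and the molecules that show peptides to CD8 T cells. Rows were matched by exact symbol in the 6 deposited tables, which each list 27378 genes. Values were found for 35 of the 37, and Mx1 and Mx2 were not analysed here. Of the 35, 25 reached a mean FPKM (fragments scaled by gene length and library size) of 1 over the 6 libraries and were tested, and 10 stayed under it. All mice were wild-type male C57BL/6J, a standard inbred laboratory strain. The 3 PS libraries came from mice given polystyrene nanoplastics through the nose for 28 days, and the 3 control libraries from mice given sterile distilled water by that route for the same time. The labels number the samples within a group without saying that each is a separate animal, so the spread and the p-values below may be partly technical. The RNA came from all cells of the brain, so fewer cells of a type and less RNA per cell cannot be told apart.

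Interferons are secreted proteins that signal infection or tissue damage. Type I interferons bind the receptor pair Ifnar1 and Ifnar2 and activate a complex that holds STAT2 and IRF9 and binds the interferon-stimulated response element (ISRE) in the promoters of antiviral genes. Interferon gamma binds Ifngr1 and Ifngr2 and acts on a different element, the gamma-activated site (GAS). Both kinds of interferon raise MHC class I, a heavy chain such as H2-K1 or H2-D1 joined to B2m and loaded with peptide by the TAP transporter and tapasin. In healthy brain most of these genes are held low, and microglia and vessel cells are known to express them.

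Promoter sequences were read for the letters through which type I interferon acts. RefSeq windows of build GRCm38.p6, from 250 bases before to 50 bases after each annotated start, were at hand for 32 of the 35 genes. They were searched on both strands for the ISRE core, GAAA and GAAA with 2 bases of any kind between them, and for the GAS letters, TTC and GAA with 3 bases between them. The ISRE core was present for 14 of the 32 genes, or 43.8%, against 3.99% of 27025 genes with a window. The GAS letters were present for 10 of the 32, or 31.2%, against 9.55% of all genes, and 2 ISRE matches overlapped a GAS match. A match describes letters in a window and is not a measured binding site. A missing match does not mean that a gene lacks the element, as an exact core was sought in a short window. Ifit2, Irf7, Irf9 and Oasl2, for example, had no ISRE match. The stretches below lie before the start site, run 5′ to 3′ on the strand of the gene, and carry the ISRE core in capitals. Isg15, Irf2 and Rsad2 are shown because their values did not overlap between the groups, and Ifit1, Bst2 and B2m as genes with the element whose values did.
Isg15: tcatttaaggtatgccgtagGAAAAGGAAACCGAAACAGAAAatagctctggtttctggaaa
Irf2: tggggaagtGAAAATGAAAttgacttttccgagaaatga
Rsad2: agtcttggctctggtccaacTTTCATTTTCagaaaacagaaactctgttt
Ifit1: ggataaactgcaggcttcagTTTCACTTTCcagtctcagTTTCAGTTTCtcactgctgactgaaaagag
Bst2: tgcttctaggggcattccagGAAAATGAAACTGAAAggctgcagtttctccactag
B2m: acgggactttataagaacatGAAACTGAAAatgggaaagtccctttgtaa
In GRCm38.p6 the stretches are chr4:156200855-156200916 on the minus strand for Isg15, chr8:46739495-46739533 on the plus strand for Irf2 and chr12:26456543-26456592 on the minus strand for Rsad2. Those of Ifit1, Bst2 and B2m are chr19:34640765-34640833 (plus), chr8:71537567-71537622 (minus) and chr2:122147528-122147577 (plus). The Isg15 stretch holds 3 overlapping matches in 1 run, Ifit1 holds 2 that are apart, and Bst2 2 that overlap. In Ifih1 and Ifitm3 the matches lie after the start site.

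The libraries were of even depth, with 39239183 to 40335590 reads behind the FPKM values, recovered from the whole steps in which those values move. Defining markers of brain cells were present, and the summed FPKM of 10 neuronal markers was 2400 to 2420 in control and 2310 to 2480 in PS libraries. For 12 microglial markers it was 238 to 260 and 217 to 267. Lymphocyte markers were near 0, with 9 of 12 under a mean of 0.1 FPKM. Neutrophil markers ran from 5.18 to 63.9 in control and from 6.48 to 33.6 in PS libraries, highest in control replicate 3. Summed endothelial markers were 169 to 201 in control and 140 to 150 in PS libraries, and red-cell markers 128 to 197 and 56.9 to 99.6, so both sums lay lower in every PS library. Slc2a1, a glucose transporter of the vessel wall, gave much of the endothelial sum, with means of 90.65 and 65.4. Without it the sum was still lower in every PS library, at 77.4 to 84.5 against at least 86.7 in control. Of the 12 endothelial markers, 6 were lower without overlap, among them Vwf (means 5.802 in control and 3.078 in PS), and the rest overlapped. Among the latter were Cldn5 (means 18.3 in control and 17.52 in PS), Cdh5 (3.536 and 3.506) and Tek (1.983 and 2.093). Summed markers of oligodendrocyte precursors were higher in every PS library, at 85.3 to 102 in control and 109 to 113 in PS. Olig1 gave much of that sum, with means of 55.16 and 64.59. Of the 6 precursor markers, 5 were higher without overlap, while Pdgfra overlapped, with means of 7.721 and 7.248. Summed oligodendrocyte markers overlapped, at 1060 to 1540 in control and 1470 to 1660 in PS libraries. The part of these cell types in the results below was not tested.

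Levels of the 35 genes in whole brain ran from a mean of 0.2038 to 104.9 FPKM, with MHC class I chains and an interferon gamma receptor chain at the top (plot of levels by library). B2m, the light chain shared by all MHC class I molecules, had the highest mean at 104.9 FPKM, rank 504 of 27378 genes. H2-D1 followed at 35.39 and Ifngr2, the signalling chain of the interferon gamma receptor, at 20.55. Several antiviral genes were under 1 FPKM, while Ifi27, at 14.08, and Bst2, Ifit2 and Isg15, at 3.421, 3.343 and 1.974, were above it. Ifit1 averaged 0.8567 FPKM, Irf7 0.6564, Usp18 0.35, Rsad2 0.2713 and Oas1a 0.2038. At those levels a gene rests on few reads, for example 10 to 23 per library for Oas1a and 12 to 34 for Usp18, against 3415 to 3912 for B2m. Of 21 interferon genes in a list of ligands, 1 had values, and that gene, Ifng, was at no more than 1 read in any library.

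**Figure D1:**
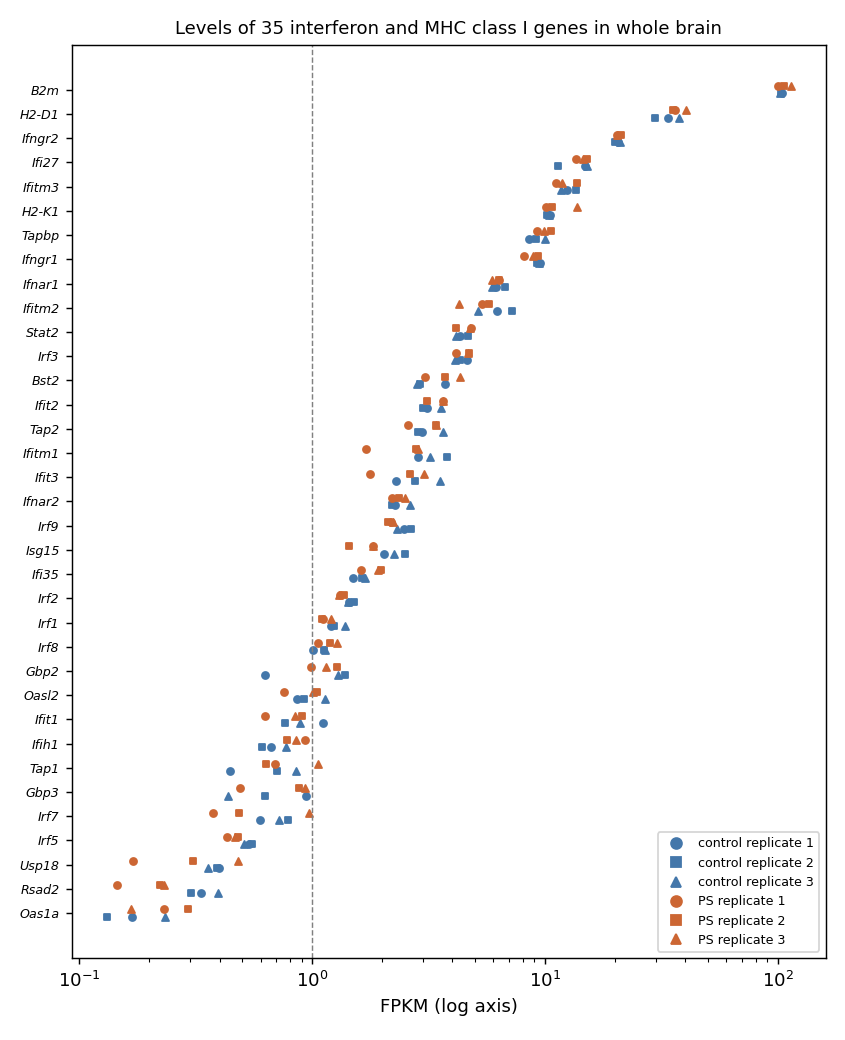
Each point is the FPKM of 1 gene in 1 library (log axis), with control below and PS above the line of the gene and the dashed line at a mean FPKM of 1. B2m, at 99.42 to 113.9, stands highest and Oas1a, at 0.1309 to 0.2929, lowest, and colours intermix for most genes.

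No interferon or MHC class I gene differed between PS and control brains past the test threshold. Fitted by limma on log2(FPKM + 1) with Benjamini-Hochberg adjustment over 12229 genes, 0 of the 25 tested had an adjusted p under 0.05, against 0.164% of all tested genes (20, all lower in PS; 48 with the replicate number as a block). The lowest adjusted p among the 25 was 0.655, for Isg15. At an unadjusted p under 0.05, 2 of the 25 (Isg15 and Ifitm1) were lower and 0 higher, against 3.29% lower and 2.66% higher of all tested genes, 5.94% in all. With the replicate number as a block, 3 (Ifitm1, Ifitm2 and Isg15) were lower and 1 (H2-D1) higher at that level, against 4.06% and 3.7% of all tested genes, and the lowest limma adjusted p was 0.283, for Ifitm1. Limma-voom on recovered reads of the same 12229 genes called 0 of the 25 and 29 in all. At an unadjusted p under 0.05 it held 0 of the 25 and 750 in all. The 25 log2 fold changes, PS over control, lay between -0.33 and 0.18, 12 below and 13 above 0, with a median of 0.01 against 0.003 over all tested genes. This scale understates changes of genes with low FPKM.

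For 24 of the 25 genes the 95% interval of the log2 fold change on the log2(FPKM + 1) scale stayed within a 1.5-fold change in either direction. Ifitm1, with an interval from -0.65 to -0.01, was the exception. A limma-voom fit of all genes with at least 10 reads in all, added after seeing the data, does not damp low genes. In that fit 18 of the 25 intervals stayed within a 1.5-fold change. Those of Isg15, Ifitm1, Ifitm2, Ifit3, Gbp2, Bst2 and Ifi35 reached past it. The median half-width on log2(FPKM + 1) was 0.18.

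**Figure D2:**
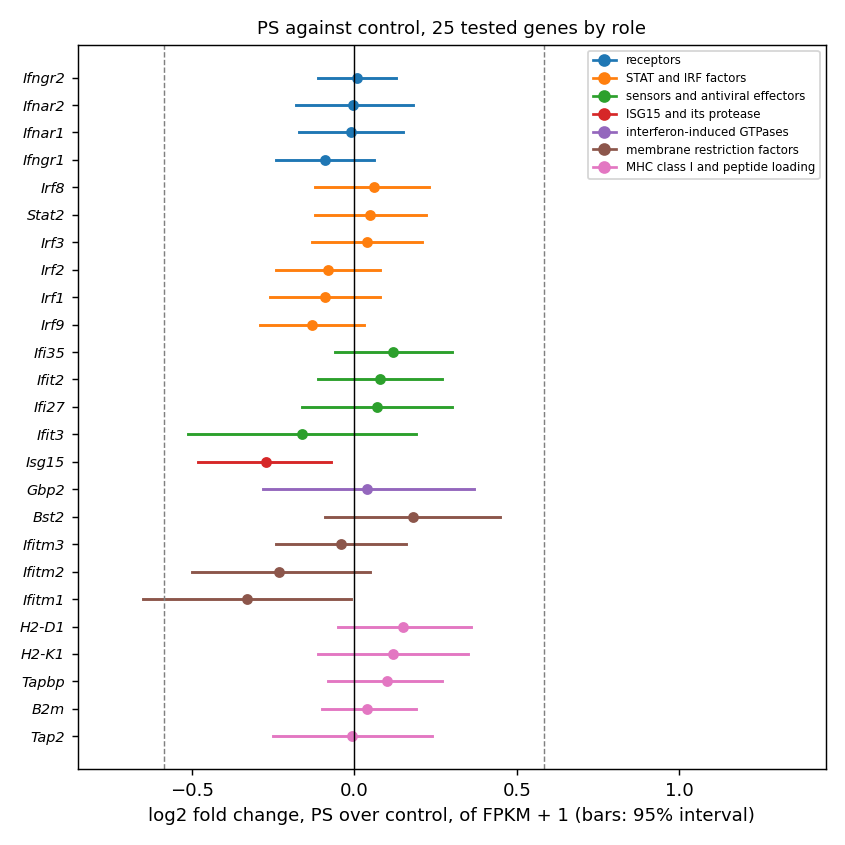
Points are log2 fold changes of FPKM + 1, PS over control, for the 25 tested genes coloured by role, bars are 95% intervals, and dashed lines mark a 1.5-fold change. The points range from -0.33 (Ifitm1) to 0.18 (Bst2), and the bars of Isg15 and Ifitm1 alone lie wholly on 1 side of 0.

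The 4 receptor chains were steady across all 6 libraries. Ifngr2 had 20.57, 19.98 and 20.88 FPKM in control and 20.34, 21.19 and 20.32 in PS libraries, listed here and below by replicate number. Its groups overlapped, and its log2 fold change was 0.01 with a 95% interval from -0.11 to 0.13. Ifngr1, the ligand-binding chain, had 9.495, 9.243 and 9.378 FPKM in control and 8.113, 9.297 and 8.874 in PS libraries. PS replicates 1 and 3 stood below the control range, and the log2 fold change was -0.09 (SE 0.066, limma adjusted p = 0.946). Ifnar1, a chain of the type I receptor, averaged 6.254 ± 0.418 FPKM (mean ± SD, n = 3 per group throughout) in control and 6.193 ± 0.267 in PS brains. Its partner Ifnar2 averaged 2.364 ± 0.235 and 2.354 ± 0.158. The log2 fold changes of this pair were -0.01 and -0.003, and both signs turned when single libraries were left out.

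Among the STAT and IRF factors, 6 of 8 were tested, and 2 of them, Irf9 and Irf2, had no overlap between groups, both lower in PS. Irf9, the DNA-binding part of the complex with STAT2, had 2.474, 2.645 and 2.319 FPKM in control libraries. In PS libraries it had 2.184, 2.112 and 2.222, each below every control value. The log2 fold change was -0.13 (SE 0.071, limma adjusted p = 0.879). Irf2, known as an antagonist of Irf1, had 1.435, 1.515 and 1.427 FPKM in control and 1.311, 1.368 and 1.3 in PS libraries. The gap between the groups was narrow, and the log2 fold change was -0.08 with a 95% interval from -0.24 to 0.08.

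Irf1, an activator of MHC class I and other interferon gamma targets, had 1.2, 1.244 and 1.382 FPKM in control and 1.108, 1.107 and 1.205 in PS libraries. The groups overlapped narrowly, PS replicate 3 against control replicate 1, with a log2 fold change of -0.09 (limma adjusted p = 0.969). Stat2 averaged 4.382 ± 0.277 FPKM in control and 4.576 ± 0.366 in PS brains. Irf3, the factor that first switches on interferon genes after viral sensing, averaged 4.35 ± 0.276 and 4.514 ± 0.321, and Irf8, a factor of microglia and other myeloid cells, 1.09 ± 0.0683 and 1.175 ± 0.107. These 3 had log2 fold changes of 0.05, 0.04 and 0.06. Irf7, the factor that amplifies a type I response, was under 1 FPKM at 0.5992, 0.7906 and 0.7175 in control and 0.3746, 0.4871 and 0.9691 in PS libraries. Its PS libraries thus lay on both sides of the control range, over 29 to 75 reads.

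Of the sensors and antiviral effectors, 4 of 9 were tested and none of these 4 separated the groups; Rsad2 and Ifih1, under 1 FPKM, did and are described further on. Ifi27, a gene induced by type I interferon, was the most abundant of them. It had 14.81, 11.35 and 15.08 FPKM in control and 13.62, 15.13 and 14.5 in PS libraries. Control replicate 2 was the low library, and without it the log2 fold change of 0.07 turned to -0.049. Ifi35, an interferon-induced leucine zipper protein, had 1.5, 1.63 and 1.688 FPKM in control and 1.616, 1.969 and 1.911 in PS libraries, with PS replicate 1 inside the control range. Its log2 fold change was 0.12 (limma adjusted p = 0.942), and 16.8% of its exonic bases are shared with an antisense gene, so without a stated strand setting its reads are uncertain.

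The IFIT genes, whose proteins bind foreign RNA, had fold changes of both signs. Ifit2 averaged 3.225 ± 0.311 FPKM in control and 3.462 ± 0.3 in PS brains, with a log2 fold change of 0.08. Ifit3 averaged 2.869 ± 0.639 and 2.475 ± 0.64, with a log2 fold change of -0.16 and a range from 1.772 in PS replicate 1 to 3.552 in control replicate 3. Its log2 fold change was -0.005 without that PS library and -0.036 without that control library. In Ifit3, 51.2% of the 50-base words also occur in Ifit3b, so reads may be divided wrongly between the pair. Ifit1 averaged 0.9233 ± 0.179 and 0.7901 ± 0.146.

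Of the 25 tested genes, Isg15 had the lowest adjusted p in the limma fit without the block. It encodes a ubiquitin-like protein that is attached to other proteins during an interferon response. Isg15 had 2.033, 2.495 and 2.236 FPKM in control and 1.817, 1.443 and 1.818 in PS libraries, over 44 to 74 reads. All 3 PS values lay below all 3 control values. Its log2 fold change of -0.27 (SE 0.09) had a 95% interval of -0.48 to -0.07 and a limma adjusted p of 0.655. In the limma-voom fit of all genes with at least 10 reads the interval was wider, from -0.92 to 0.09 around -0.41. Usp18, the protease that removes ISG15 and restrains the type I receptor, averaged 0.381 ± 0.022 FPKM in control. In PS libraries it was at 0.1693, 0.308 and 0.4798, on both sides of the control range of 0.3562 to 0.3983.

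The membrane restriction factors, which hold viruses at the cell surface or in endosomes, went in both directions. Ifitm1 had 2.857, 3.805 and 3.212 FPKM in control and 1.706, 2.783 and 2.835 in PS libraries. The groups did not overlap, but PS replicates 2 and 3 lay just under control replicate 1. The log2 fold change was -0.33 (SE 0.142, limma adjusted p = 0.834, or 0.283 with the block), and -0.166 without PS replicate 1. Ifitm2 had 6.215, 7.174 and 5.149 FPKM in control and 5.353, 5.714 and 4.275 in PS libraries. Control replicate 3 lay below PS replicates 1 and 2, and the log2 fold change was -0.23 (limma adjusted p = 0.868), or -0.131 without control replicate 2 and -0.127 without PS replicate 3. PS was lower in 3 of 3 same-numbered pairs (limma adjusted p = 0.362 for Ifitm2 with the block). The same held for Ifit3, Isg15, Ifitm1, Irf1, Irf2 and Irf9. The pairing was inferred from the data and no share over all tested genes is given. This count therefore cannot be read as a result about the members. In the annotation, 40.9% of the exonic bases of Ifitm2 also belong to a same-strand gene model, so its reads are uncertain.

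Ifitm3, the most abundant of the family, had 12.36, 13.57 and 11.68 FPKM in control and 11.1, 13.7 and 11.8 in PS libraries. The 2 ranges nearly coincided (log2 fold change -0.04, 95% interval -0.24 to 0.16). Bst2, a tether that holds budding virus on the cell, had 3.71, 2.902 and 2.81 FPKM in control and 3.061, 3.713 and 4.33 in PS libraries. PS replicate 3 was highest, the groups overlapped, and the log2 fold change was 0.18 (limma adjusted p = 0.933), or 0.086 without PS replicate 3. Of the interferon-induced GTPases, Gbp2 averaged 1.097 ± 0.411 FPKM in control and 1.137 ± 0.143 in PS brains. Control replicate 1, at 0.626, was its lowest library, and without it the log2 fold change of 0.04 became -0.129. Gbp3 averaged 0.6665 ± 0.252 and 0.7637 ± 0.24.

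MHC class I and its peptide-loading partners had positive log2 fold changes in 4 of 5 tested genes, with none past the threshold and none separating the groups. H2-D1 had 33.54, 29.55 and 37.4 FPKM in control and 35.97, 35.49 and 40.42 in PS libraries. Control replicate 3 exceeded PS replicates 1 and 2, and the log2 fold change was 0.15 (SE 0.09, limma adjusted p = 0.906). Leaving out control replicate 2 took it to 0.07, and leaving out control replicate 3 to 0.235. PS was higher in 3 of 3 same-numbered pairs, as it also was for Ifit2, Ifi35 and Irf8 (limma adjusted p = 0.607 for H2-D1 with the block). No share over all tested genes is given for this count, and the pairing is not established. H2-K1 had 10.54, 10.21 and 10.41 FPKM in control and 10.04, 10.7 and 13.67 in PS libraries. PS replicate 3 alone stood apart, and without it the log2 fold change of 0.12 became -0.002. The heavy chains are similar genes. Of the 50-base words of H2-D1, 5.4% occur in H2-K1 and 5.9% in H2-Q1, and 5.2% of those of H2-K1 occur in H2-Q10. Other class I genes share words with both.

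B2m had 104.1, 103.4 and 102.1 FPKM in control libraries, an SD of 1.03, and 99.42, 106.5 and 113.9 in PS libraries, an SD of 7.26. PS values lay on both sides of the control range, and the log2 fold change was 0.04 with a 95% interval from -0.1 to 0.19 (-0.004 without PS replicate 3). Tapbp, which encodes tapasin, had 8.556, 9.091 and 10.01 FPKM in control and 9.238, 10.63 and 9.869 in PS libraries. Its groups overlapped, with a log2 fold change of 0.1 (limma adjusted p = 0.96). In Tapbp 24.9% and in Tap2 14.1% of the exonic bases overlap a gene on the opposite strand. Tap2, a subunit of the peptide transporter, averaged 3.149 ± 0.435 and 3.139 ± 0.477. Its partner Tap1, under 1 FPKM, ran from 0.4441 to 0.8553 in control and from 0.6303 to 1.059 in PS libraries.

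Of the 25 tested genes, 4 (16.0%) had no overlap between groups, namely Isg15, Ifitm1, Irf9 and Irf2, all lower in PS. Over all tested genes 11.3% had no overlap, 6.33% with PS lower and 4.93% with PS higher. With 3 libraries on each side, the smallest p an exact permutation test allows is 0.1, and single genes were not tested that way. Of the 10 genes under 1 FPKM, 3 had no overlap, 2 lower and 1 higher. Of 8059 such genes with at least 10 reads in all, 11.1% had none, 5.94% lower and 5.16% higher. They are given in full here, a choice made after their values were seen.

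Rsad2, the antiviral enzyme viperin, had 0.3328, 0.303 and 0.3933 FPKM in control and 0.1452, 0.2227 and 0.2311 in PS libraries, over 22 to 59 reads. All PS values were lower. The limma-voom fit of all genes with at least 10 reads gave a log2 fold change of -0.79. Its 95% interval ran from -1.42 to -0.17 (limma-voom adjusted p = 0.773, over the genes of that fit). Irf5, a factor downstream of Toll-like receptors, had 0.5366, 0.553 and 0.5105 FPKM in control and 0.4323, 0.4818 and 0.4657 in PS libraries. The same limma-voom fit gave -0.21 for Irf5 (limma-voom adjusted p = 0.936), and 14.1% of its exonic bases overlap Tnpo3 on the opposite strand. Ifih1, which encodes the double-stranded RNA sensor MDA5, was the reverse case. It had 0.6661, 0.606 and 0.7746 FPKM in control and 0.9309, 0.7831 and 0.8515 in PS libraries. All PS values were higher (0.33 in the same fit, limma-voom adjusted p = 0.894).

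**Figure D3:**
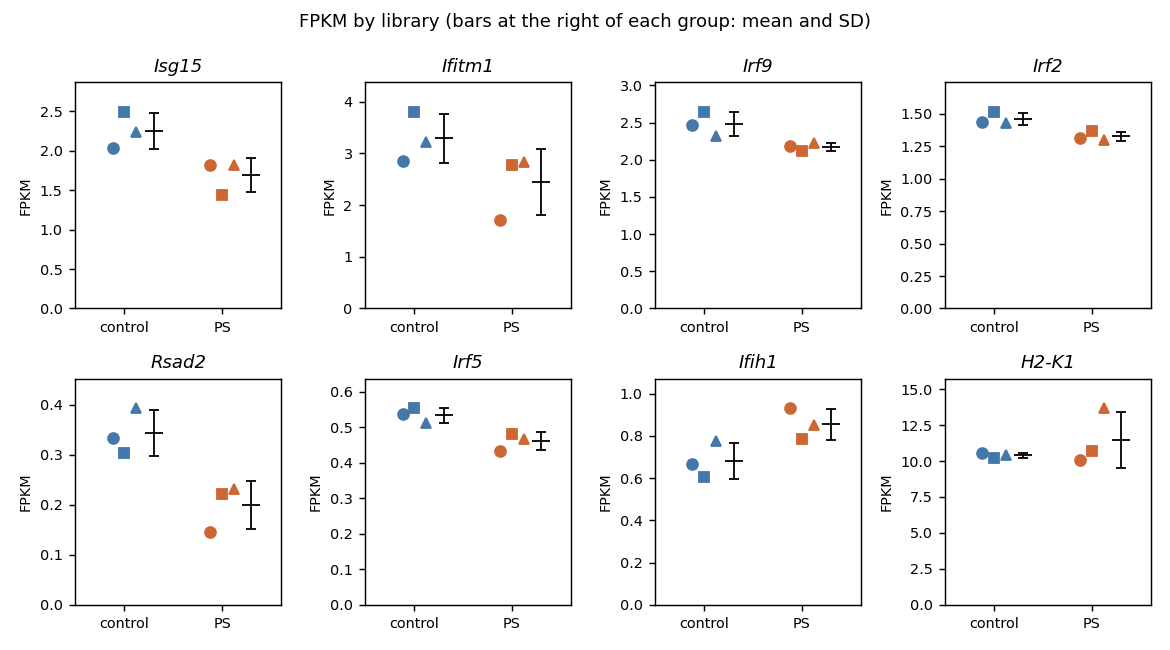
Each panel plots FPKM of 1 gene in the 3 control and 3 PS libraries (circle, square and triangle for replicates 1, 2 and 3), with the mean and SD at the right of each group. In the first 7 panels the groups do not overlap, and Ifih1 is the only one of them higher in PS; in H2-K1, PS replicate 3 stands apart at 13.67.

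Of the 35 genes, 22 were lowest within the PS group in PS replicate 1, where 36.5% of all tested genes were. PS replicate 3 was highest within the group for 17 of the 35, against 31.8% of all tested genes. The 35 include 10 genes under 1 FPKM, a level that the shares over all tested genes leave out. Averaged over 10 tested effectors, ISG15, GTPases and restriction factors, the log2 level relative to the control mean was -0.06, 0.04 and 0.02 in control libraries. It was -0.16 in PS replicate 1 and about 0 in PS replicates 2 and 3. For the 5 MHC class I and loading genes it was -0.02, -0.06 and 0.09 in control and -0.04, 0.09 and 0.19 in PS libraries. Summed microglial markers had the order of the MHC genes among PS libraries, at 217, 242 and 267. Among control libraries, at 238, 260 and 249, the order differed, and the part of these cells was not tested.

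**Figure D4:**
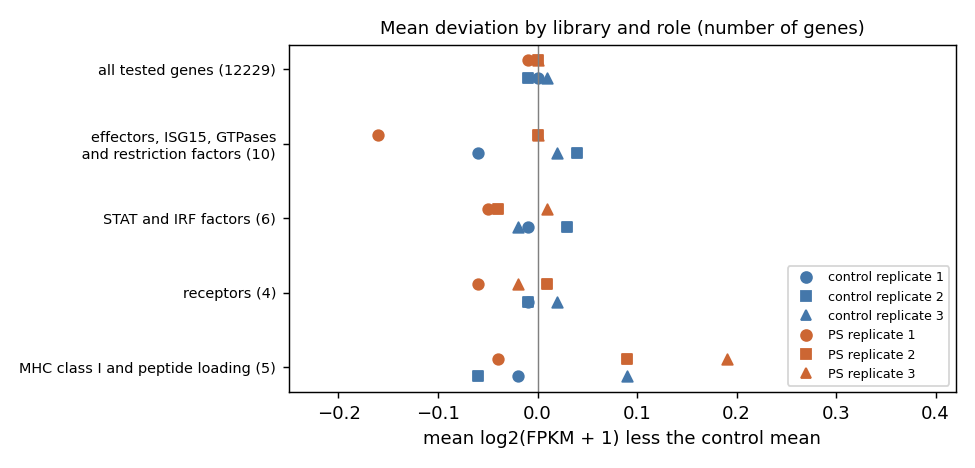
Points are library means of log2(FPKM + 1) less the control mean, over the tested genes of each role (number of genes in brackets). All tested genes together stay within 0.01 of 0, PS replicate 1 lies at -0.16 for the effectors, and PS replicate 3 at 0.19 for MHC class I and loading genes.

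Genes with and without a match to the exact ISRE core in the searched window covered overlapping ranges of fold change. Of the 14 genes with the core in the window, 9 were tested and 5 were under 1 FPKM. The 9 had log2 fold changes from -0.27 to 0.18 with a median of -0.04, 5 below and 4 above 0. The 14 tested genes with a window but no core ran from -0.33 to 0.15 with a median of 0.03. Neither group held a gene past the threshold.

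The rest of the pathway was read from lists of 177 further symbols, of which 151 had values and 70 were tested. None of the 70 passed the threshold by limma, where 0.164% of all tested genes did, or by limma-voom, where 29 of 12229 did. At an unadjusted p under 0.05, 8 were lower and 4 higher, where 3.29% and 2.66% of all tested genes were. Of 15 tested genes of interferon signalling, 2 were lower at that level, with a median log2 fold change near 0. Irf2bp2, which encodes a corepressor that binds IRF2, had 8.317, 9.01 and 7.828 FPKM in control and 6.481, 6.618 and 6.73 in PS libraries. Every PS value was lower (log2 fold change -0.3, SE 0.067, limma adjusted p = 0.29). Ptpn1, a phosphatase that dampens JAK signalling, averaged 7.746 ± 0.904 and 6.398 ± 0.359 FPKM (limma adjusted p = 0.73).

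Nucleic acid sensors gave 1 lower and 0 higher of 11 tested at an unadjusted p under 0.05. Tlr7, the endosomal sensor of single-stranded RNA, had 1.54, 1.812 and 1.401 FPKM in control and 0.9037, 0.8297 and 1.32 in PS libraries. The groups did not overlap (log2 fold change -0.36, limma adjusted p = 0.565). Sting1, the adaptor of cytosolic DNA sensing, averaged 0.9458 ± 0.19 and 1.255 ± 0.15 (limma adjusted p = 0.842). Of 77 further interferon-stimulated genes with values, 53 were under 1 FPKM and 24 were tested, with 4 lower and 1 higher at an unadjusted p under 0.05. Ifi27l2a, a relative of Ifi27, had 1.484, 1.126 and 1.686 FPKM in control and 0.5941, 0.73 and 1.019 in PS libraries, over 21 to 59 reads. All PS values were lower (log2 fold change -0.45, limma adjusted p = 0.448). Ly6a, a surface protein of brain endothelium, averaged 23.74 ± 2.47 and 19.07 ± 1.69 without overlap (limma adjusted p = 0.555). The endothelial marker sum was also lower in every PS library, with or without Slc2a1. Of its 12 markers, 11 had negative log2 fold changes and 6 were lower without overlap. The rest, Cldn5 and Cdh5 among them, overlapped between the groups. Vwf alone of the 12 passed the threshold (log2 fold change -0.74, limma adjusted p = 0.0101), where 0.164% of all tested genes did. The part of endothelial cells in this was not tested.

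Of 14 other MHC class I and loading genes tested, 0 were lower and 1, Calr, was higher at an unadjusted p under 0.05. Calr, a chaperone of the endoplasmic reticulum that helps fold the heavy chain, averaged 127.2 ± 7.57 and 141.4 ± 7.27 FPKM (limma adjusted p = 0.838). MHC class II, which presents peptides to CD4 T cells and is made by few brain cells, had 7 tested genes with a median log2 fold change of 0.24, of which 2 were higher and 1 lower at an unadjusted p under 0.05. Cd74, the invariant chain, had 3.952, 4.755 and 4.119 FPKM in control and 5.596, 6.588 and 5.457 in PS libraries. Every PS value was higher (log2 fold change 0.38, SE 0.089, limma adjusted p = 0.327). H2-Ab1, a class II chain, had 1.33, 1.111 and 1.565 FPKM in control and 1.822, 2.722 and 1.781 in PS libraries, also without overlap (log2 fold change 0.4, limma adjusted p = 0.572). Ctss, a protease that trims the invariant chain and is made by microglia, averaged 52.28 ± 0.408 and 45.18 ± 6.24 (log2 fold change -0.22, limma adjusted p = 0.819).

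**Figure D5:**
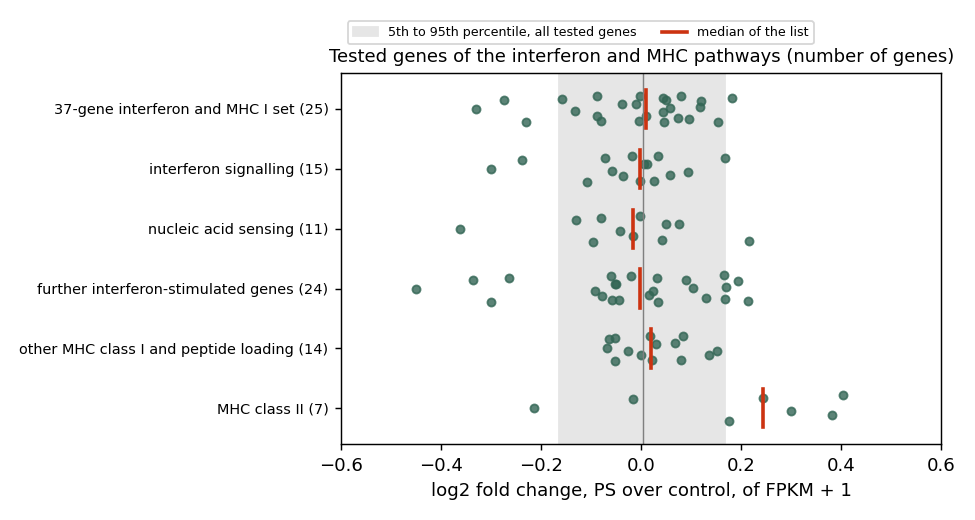
Points are log2 fold changes of FPKM + 1, PS over control, of tested genes in each list, red bars are list medians, and the grey band spans the 5th to 95th percentile of all tested genes, -0.164 to 0.168. Medians of 5 lists lie near 0 and that of the 7 MHC class II genes at 0.24.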

How the data were processed

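RNA was sequenced from whole brain in 3 control and 3 PS samples, grouped by their titles. Each library has its own table of FPKM, as deposited. Per the submitters' processing notes, the tools were fastp, HISAT2, HTSeq and R 3.2.0 with build GRCm39; no strand setting is given in the sources used here. Of the genes above 0, 99.99% had values that were whole reads in every library within 0.02 reads. The gene length was the annotated one where it gave whole reads, and otherwise the shortest that did. The share thus follows in part from that search, and 1449 lengths equalled the GENCODE M21 length. The recovered reads gave depth and served limma-voom, while the main test used FPKM.

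Groups were compared over the 12229 of 27378 genes whose mean FPKM reached 1, on log2(FPKM + 1), by limma 3.58.1 (R 4.3.3) with group as the only term, a variance trend and 4 residual degrees of freedom. P-values are two-sided and adjusted by Benjamini-Hochberg over all tested genes. The pipeline was tested on simulated data. The members, the further lists and the rule for naming genes were chosen with earlier results of these data known. The rule gives values in every library for members without overlap, with the 12 lowest p or the 8 highest levels, and from each pathway list up to 4 genes of lowest p and 2 of highest level. Same-numbered libraries had deviations from the group means that correlated at 0.181, 0.185 and 0.161. Differently numbered libraries of the 2 groups correlated at -0.217 to 0.025. As all same-numbered values exceeded 0.1, the numbers were taken to pair the samples, from the data and not the labels. A second model blocked on the number. The deviations within a group are not independent, and the pairing was inferred from the same values that the block used. Results with the block therefore rest on a pairing that is not established. Shared words of 50 bases and exon overlaps come from GENCODE M21. Settings varied were the pseudocount, the filter, rescaling between libraries, the variance trend, sample weights, limma-voom and each library left out. A voom fit of all genes with at least 10 reads in all was added after seeing the data. It gave the limma-voom intervals and the limma-voom values of genes under 1 FPKM. Its p-values are adjusted over its own genes. A gene of the further lists is not reported here.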

Additional observations from a re-analysis of the deposited data

How the results depend on the processing

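The absence of calls among the interferon and MHC class I genes held under all 17 alternatives, with an adjusted p no lower than 0.0826 (Gbp2 and Tapbp, sample weights). The count over all genes was 1 with every gene above 0 tested, 9 at a mean FPKM of at least 5, 48 with the replicate block (45 lower, 3 higher), 632 with sample weights (297 higher, 335 lower), and 0 to 66 with single libraries left out (0 without PS replicate 2, 2 without control replicate 1 or PS replicate 1, 66 without control replicate 3). The block changed no call among the members or the further lists. Sample weights called 8 genes of the further lists: Cd74, H2-Ab1, Sting1, Ifi27l2a, Irf2bp2, Ptpn1, Slfn5 and Tbk1. The 4 tested members without overlap became 7 of 35 with no filter and 0 of 10 at a mean FPKM of at least 5. They became 5 to 10 with a library left out, where 3 against 2 separate more easily by construction. The count was 10 without PS replicate 1 and 7 without control replicate 1, control replicate 3 or PS replicate 2. Shares over all genes in these settings are not given, so these counts cannot be read as a result about the members. Of 410 recomputed fold changes 388 kept their direction and 22, in 11 genes, did not. With sample weights the log2 fold change was -0.015 for Ifi27, 0.061 for Ifit3, 0.002 for Ifnar1, 0.037 for Ifnar2, -0.012 for Irf3 and 0.068 for Tap2, and upper-quartile rescaling gave 0.0004 for Ifnar2; the cause was not tested. Left-out libraries gave -0.004 to 0.093 for B2m, -0.129 to 0.146 for Gbp2, -0.002 to 0.203 for H2-K1, -0.049 to 0.141 for Ifi27, -0.119 to 0.021 for Ifitm3, -0.046 to 0.034 for Ifnar1, -0.04 to 0.053 for Ifnar2, -0.01 to 0.023 for Ifngr2 and -0.058 to 0.094 for Tap2. Genes with under 100 reads, such as Isg15, Rsad2 and Usp18, are limited by depth.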
